A study of Mus musculus with 18 samples.

Results

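The comparison described here is the interaction of INS37217 treatment with time in the detached mouse retina, the INS37217 effect at 7 d set against its effect at 2 h. It was computed as (INS37217 7 d minus INS37217 2 h) minus (saline 7 d minus saline 2 h), on 12 of the 18 arrays of the series, for every probe set that is not an array control. INS37217 is denufosol, a compound that activates P2Y2, a receptor of extracellular nucleotides. The retinas came from Balb/cJ mice, an albino strain, whose retina had been lifted by 1 uL of fluid injected beneath it. The 4 groups were INS37217 at 7 d (10 uM in saline), saline at 7 d, INS37217 at 2 h (10 uM in saline) and saline at 2 h. Each group had 3 arrays, and every array was hybridised with RNA pooled from more than 5 retinas. Per the design text the 3 pools are biological replicates. The p-values measure the spread between pools that is left once the shift shared by arrays of the same replicate number is removed. Every eye had thus received an injection and a detachment, and no uninjected retina enters the comparison. The remaining 6 arrays, from 24 h, took no part in it and serve as separate measurements.

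The P2Y2 receptor sits on the retinal pigment epithelium, the cell layer beneath the photoreceptors, where its activation drives chloride and fluid out of the subretinal space. A detachment parts photoreceptors from that epithelium and sets off an immediate early gene response, a reaction of Müller glia and a gathering of microglia and macrophages. Over days, contractile fibroblast-like cells that lay down collagen can follow, as in wounds elsewhere. A positive interaction means that INS37217 retinas stood higher relative to saline retinas at 7 d than at 2 h, and a negative one the opposite. It does not say at which of the times the treatments differed, so the effects at 7 d and 2 h are given beside it for many genes, though not for all.

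Values are log2 RMA signals as deposited, and all differences are on that scale. The limma test, with the replicate number as a block and p adjusted by Benjamini-Hochberg over 22626 probe sets, passed 127 probe sets at adjusted p under 0.05 (0.561% of those tested). Of these, 83 were higher (0.367%) and 44 lower (0.194%). The higher ones ran from 0.60 to 3.21 with a median of 1.04, and the lower ones from -1.40 to -0.64 with a median of -0.84, against a median of -0.03 over all probe sets. Their 113 probe sets with a single gene belonged to 65 genes on the higher side and 36 on the lower side. In all 127 the sign was the same in each of the 3 replicate numbers. The tested interaction is the mean of those 3 values, so passing the test favours a shared sign, and this adds no support.

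These counts rest on the replicate block. Replicate 1 stood apart in every group: its values correlated with those of replicates 2 and 3 of its own group at 0.959 to 0.981, whereas replicates 2 and 3 correlated at 0.994 to 0.997. Without the block 6 probe sets passed, and 496 had an unadjusted p under 0.05, against 1941 of 22626 with the block. Counts at that level in the gene lists below are to be set beside these 1941. The 6, all higher, included Fn1, Gpnmb, Col1a1, Col3a1 and Pf4. On replicates 2 and 3 alone, with the block, 356 passed, of which 174 were higher and 182 lower, and 122 of the 127 were among them. One array, saline 7 d replicate 2, has a source name that gives 2 h, although its title gives 7 d. Its values correlated at 0.960 and 0.994 with the other saline 7 d arrays and at 0.947 to 0.979 with the saline 2 h arrays. Leaving out any 1 of the 8 arrays of replicates 2 and 3 gave 47 to 78 calls, and leaving out any 1 of the 4 arrays of replicate 1 gave 109 to 181. Without saline 7 d replicate 2, 60 probe sets passed, 53 higher and 7 lower, 59 of them among the 127. Of the 6 INS37217 arrays, 5 have a source name without INS37217, and the titles were followed.

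The arrays carried retina and lens genes at high levels. The rod genes Sag, the rod arrestin, and Gnat1, the rod transducin, had medians of 13.98 and 13.29 over the 12 arrays, and the short-wave cone pigment Opn1sw had 11.04. Glul, glutamine synthetase of Müller glia, had 11.48, and Acta1, the actin of skeletal muscle, had 5.19, with 23% of probe sets below it. Crygd, a crystallin of lens fibres, had 11.59. In summed linear signal the 18 lens genes measured reached 54073 to 89827 over the 12 arrays and the 21 rod genes 88181 to 108251.

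The 127 probe sets fell into few patterns, and the times at which INS37217 and saline differed separated them. All 44 lower probe sets were higher in INS37217 than in saline retinas at 2 h and passed no test at 7 d. Of the 83 higher ones, 45 were higher in INS37217 retinas at 7 d with no call at 2 h, 24 were lower in INS37217 retinas at 2 h with no call at 7 d, and 6 did both. The other 8 passed neither test on its own. For comparison, 126 probe sets in all were higher in INS37217 retinas at 7 d (0.557%) and 0 lower by the same limma test, with 1241 at an unadjusted p under 0.05 in either direction. At 2 h, 291 passed (1.29%), of which 226 were higher (0.999%) and 65 lower (0.287%). The effects at 7 d and at 2 h had opposite signs in 72 of the 83 higher and 33 of the 44 lower probe sets. The probe sets were selected on the difference of these effects, which favours opposite signs where 1 effect is near 0. Median effects were 0.63 at 7 d and -0.27 at 2 h in the higher ones, and -0.05 and 0.81 in the lower ones.

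**Figure D1:**
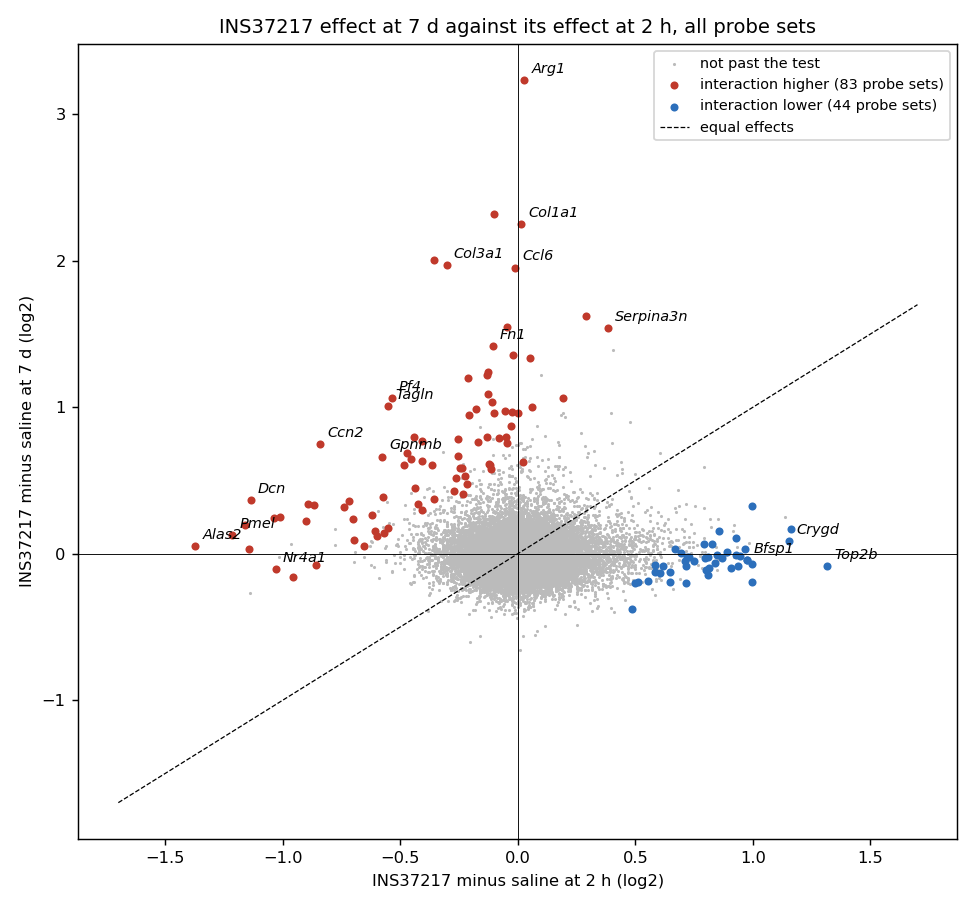
Each point is 1 of 22626 probe sets, with the INS37217 minus saline difference at 2 h on the horizontal axis and at 7 d on the vertical axis, both in log2. The 83 higher probe sets (red) lie above the dashed line of equal effects, along the upper part of the vertical axis (Arg1, Col1a1, Ccl6), on the left (Alas2, Pmel) or between (Ccn2, Tagln), and the 44 lower ones (blue) lie to the right near a 7 d effect of 0.

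The largest of the 127 interactions was that of a wound-healing macrophage gene. Arg1, arginase 1, which turns arginine into ornithine and marks macrophages in repair, read 6.15, 8.15 and 8.32 in INS37217 retinas at 7 d, against 4.11, 4.53 and 4.28 in saline retinas. The readings at 2 h were 3.87, 4.21 and 4.23 with INS37217 and 4.14, 4.0 and 4.09 with saline. The 3 INS37217 arrays at 7 d stood above the 9 others, which overlapped, and replicate 1 was the lowest of the 3. The interaction was 3.21 (SE 0.43, limma adjusted p 0.00203), made of an effect of 3.23 at 7 d and 0.03 at 2 h. It was 2.31, 3.41 and 3.90 in replicate numbers 1 to 3. Of the settings tried, the 2 fits without the block did not pass it, with an adjusted p up to 0.274.

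Ccl6, a chemokine of myeloid cells, had the same shape at a lower height. It read 6.83, 7.78 and 7.72 in INS37217 retinas at 7 d, against 5.30, 5.58 and 5.59 in saline retinas. At 2 h the INS37217 readings were 5.13, 5.27 and 5.50, against 5.32, 5.46 and 5.16 for saline, so that the 2 h groups overlapped. Its interaction was 1.97 (SE 0.22, adjusted p 0.000579). Pf4, the platelet factor 4 chemokine, which macrophages also make, read 6.81, 6.84 and 6.33 in INS37217 retinas at 7 d, against 5.61, 5.52 and 5.66 in saline retinas. Pf4 read lower in INS37217 retinas at 2 h, with 5.49, 5.73 and 5.53, against 6.31, 5.98 and 6.07 in saline retinas, a difference of -0.54 that missed the threshold there (adjusted p 0.0589). The interaction of Pf4 was 1.60 (SE 0.18, adjusted p 0.000595). F13a1, the A subunit of factor XIII and a macrophage gene, had an interaction of 1.22 (adjusted p 0.00210), and Mmp12, macrophage elastase, had 0.60 (adjusted p 0.0482).

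Of 17 measured genes in the wound-healing macrophage list, 6 were higher and 0 lower at their brightest probe set, with a median interaction of 0.33. Besides the 5 above, Gpnmb passed. Chil3 and Retnla, which mark the same macrophage state in mice, had 0.03 and -0.27, and Mrc1, the mannose receptor, had 0.50. Fabp5, a fatty acid binding protein, was lower at a dimmer probe set (-0.70, adjusted p 0.0420). The list was chosen with earlier results on Arg1 known.

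Lyz2, the lysozyme of macrophages, and the related lysozyme gene Lyz1 showed a different time course, since they also increased with time under saline. Lyz2 read 10.85, 11.04 and 11.11 in INS37217 retinas at 7 d, against 9.70, 9.85 and 9.79 in saline retinas. At 2 h its INS37217 readings were 6.91, 6.51 and 6.33, beside 6.92, 6.59 and 6.63 for saline. The 7 d minus 2 h difference was thus 4.42 with INS37217 and 3.07 with saline, both past the test, and the interaction was 1.35 (SE 0.19, adjusted p 0.00335). For Lyz1 the change over time was 5.09 with INS37217 and 3.68 with saline, and the interaction 1.41. The 2 lysozyme genes are close copies, so their probe sets may share transcripts. By contrast the change of Arg1 over time was 3.44 with INS37217, and with saline it was 0.23 and did not pass (adjusted p 0.677).

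Among 27 microglia and macrophage genes, 4 were higher and 0 lower at the brightest probe set, 23 were above 0 and the median was 0.28. The 4 were Lyz2, Ptprc (CD45 of leukocytes, 1.16), Cd74 (0.90) and Ctss (cathepsin S, 0.87). Fcgr2b, an inhibitory Fc receptor, was higher at 1 dimmer probe set (1.38), while its brightest had 0.17 (adjusted p 0.914). Genes that mark resident microglia did not pass: Cx3cr1 had 0.28, Tmem119 -0.02 and P2ry12 -0.44. The macrophage colony factor receptor Csf1r had 0.02 and the scavenger receptor Cd163 -0.19. In summed linear signal the 27 genes reached 7550 to 9085 in INS37217 retinas at 7 d, against 5388 to 6171 in saline retinas. At 2 h the sums were 2580 to 2858 with INS37217 and 2472 to 2873 with saline. Such sums weigh the brightest genes most, among them the called Lyz2. The mean log2 value of the list was 7.27 with INS37217 and 6.89 with saline at 7 d, and 6.09 and 6.07 at 2 h. These are whole tissues, in which more cells of a type and more RNA per cell cannot be told apart. By limma, 0 of 13 neutrophil and 0 of 12 lymphocyte genes passed, and 0 of each had an unadjusted p under 0.05, with medians of -0.10 and -0.08.

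Of 10 antigen presentation genes measured, 3 were higher: H2-Aa, B2m and Cd74, the last of which is also in the macrophage list. H2-Aa, an MHC class II chain, read 7.26, 7.31 and 7.20 in INS37217 retinas at 7 d, against 6.45, 6.47 and 6.5 in saline retinas. Its 2 h readings were 6.10, 5.62 and 5.59 with INS37217 and 6.17, 6.06 and 5.85 with saline. The 7 d groups lay apart and the 2 h groups overlapped, and the interaction was 1.04 (SE 0.16, adjusted p 0.00682). B2m, the light chain of MHC class I, had 1.04 (adjusted p 0.00998). Cd74, which chaperones class II chains, had 0.90 (adjusted p 0.0126). The list median was 0.43, from -0.15 to 1.04. Of 31 interferon-induced genes 1 passed, the antiviral membrane protein Ifitm3 (0.69), and the median was 0.08. Ifit1, another interferon-induced gene, had 0.91 with an adjusted p of 0.0579. Of 14 complement genes 1 passed, C3ar1, the receptor of the C3a fragment (0.99, adjusted p 0.0128), with a median of 0.12.

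A second group at 7 d was matrix of the fibrous scar kind. Col3a1, a chain of type III collagen, read 7.30, 7.90 and 7.59 in INS37217 retinas at 7 d, against 5.58, 5.58 and 5.72 in saline retinas. At 2 h it read 5.01, 4.64 and 5.19 with INS37217 and 5.37, 5.09 and 5.29 with saline. The 3 INS37217 arrays at 7 d stood above the 9 others, and at 2 h the groups overlapped (-0.30, adjusted p 0.527). The interaction was 2.27 (SE 0.21, adjusted p 0.000102). Col1a1, a chain of type I collagen, had an interaction of 2.24 at one probe set (SE 0.15, adjusted p 3.50e-06), the lowest p of all. That probe set read 6.77, 7.11 and 7.25 in INS37217 retinas at 7 d, against 4.77, 4.68 and 4.93 in saline retinas. Its slightly brighter probe set had 0.75 and did not pass (adjusted p 0.233). Col1a2, the partner chain, had 1.60 (adjusted p 0.00335) and 2.42 at its 2 probe sets.

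Fn1, fibronectin, which cells deposit in wounds and bind through integrins, had group ranges that lay well apart at 7 d. It read 9.38, 9.35 and 9.13 in INS37217 retinas at 7 d, against 7.97, 7.84 and 7.80 in saline retinas. The 2 h readings were 8.01, 7.83 and 8.03 with INS37217 and 8.08, 8.04 and 8.07 with saline. Its interaction was 1.52 (SE 0.14, adjusted p 0.000102), and it passed in all 21 alternative settings tried. Further matrix genes with an effect at 7 d were the proteoglycan Bgn (1.37), fibulin 2 (Fbln2, 1.33), periostin (Postn, 1.28), type V collagen (Col5a1, 1.03 at a dimmer probe set), matrix Gla protein (Mgp, 0.93) and tenascin C (Tnc, 0.83). Of 32 scar matrix genes 8 were higher at the brightest probe set and 11 at any, 0 were lower, 30 were above 0 and the median was 0.55. The 14 basement membrane genes, which hold laminins and type IV collagens, had 0 calls by limma (1 at an unadjusted p under 0.05) and a median of 0.13, with Nid1 at 0.33 and Col4a1 at 0.32.

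**Figure D2:**
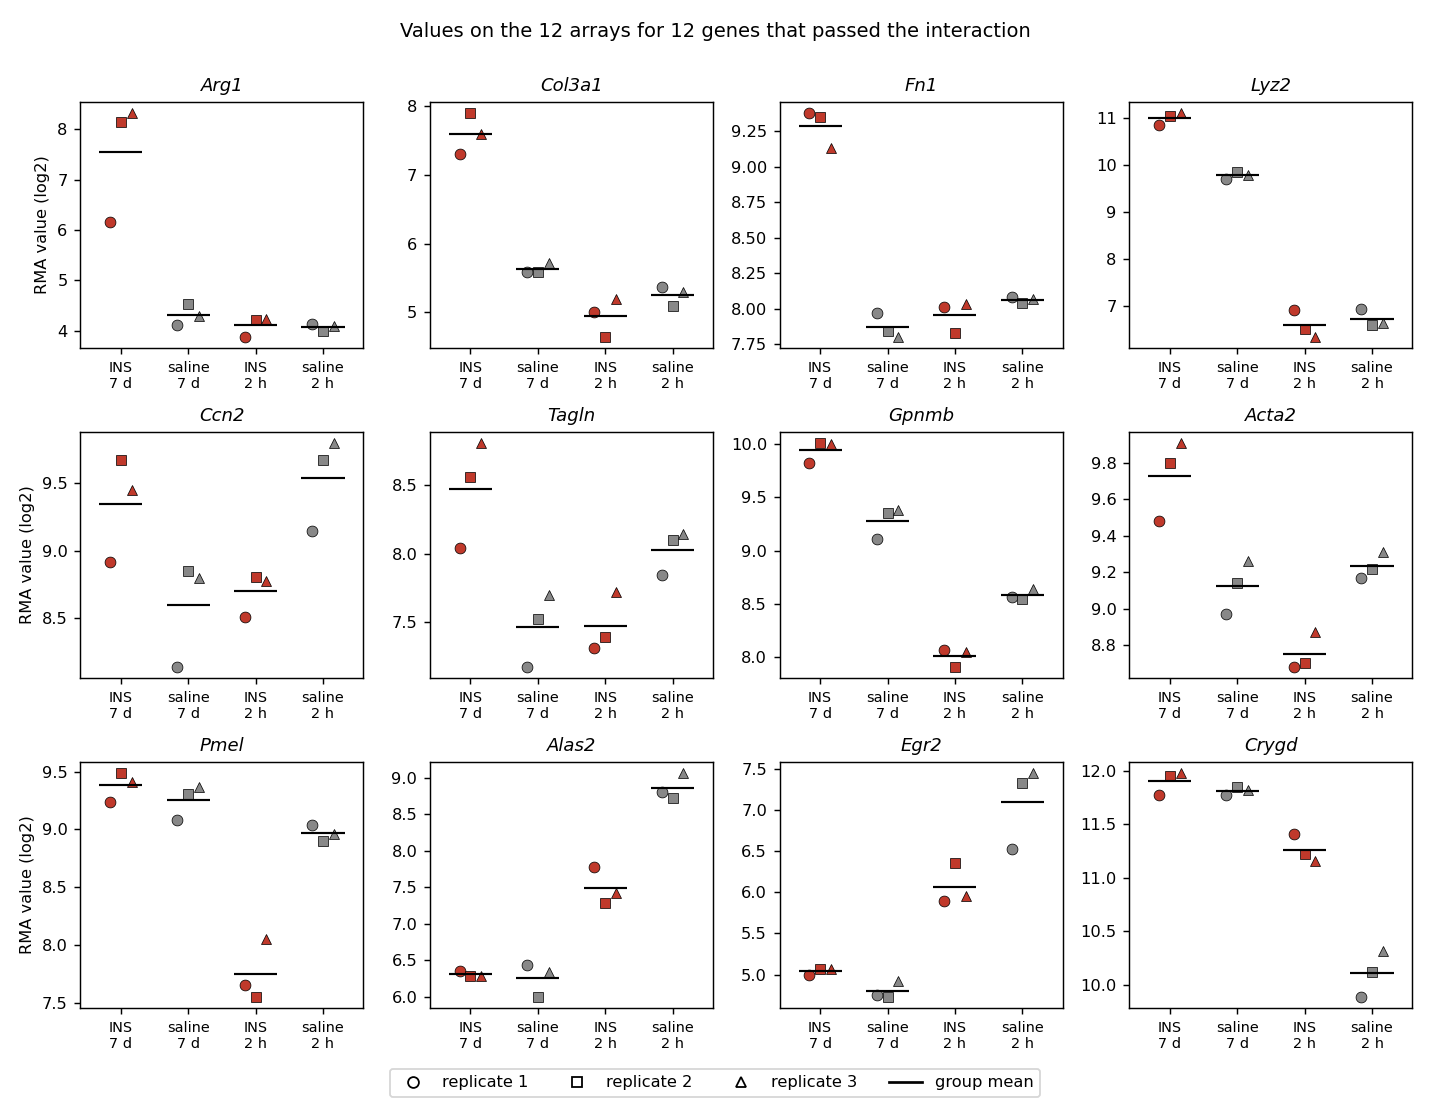
RMA values (log2) on the 12 arrays for 12 genes that passed the interaction, with a point for each array, shaped by replicate number, and a line for each group mean. Arg1, Col3a1, Fn1 and Lyz2 are highest in INS37217 retinas at 7 d, Ccn2, Tagln, Gpnmb and Acta2 change sides between 7 d and 2 h, Pmel is lowest in INS37217 retinas at 2 h, Alas2 and Egr2 are highest in saline retinas at 2 h, and Crygd is lowest there.

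Decorin (Dcn), a small proteoglycan that binds collagen fibrils, was in the same list but owed most of its interaction to 2 h. It read 6.46, 6.55 and 7.02 in INS37217 retinas at 2 h, against 7.79, 7.74 and 7.91 in saline retinas, a difference of -1.14 (adjusted p 0.00446). At 7 d the readings were 7.98, 8.98 and 9.13 with INS37217 and 7.69, 8.69 and 8.61 with saline, which overlapped. Within each replicate number INS37217 was higher at 7 d, but that effect did not pass. The interaction of Dcn was 1.5 (SE 0.26, adjusted p 0.0128). Timp3, an inhibitor of matrix proteases, also had its effect at 2 h (-0.57, adjusted p 0.00649) and an interaction of 0.71 at a dimmer probe set, with 0.54 at the brightest, which did not pass. Timp1, another such inhibitor, had a 7 d effect of 0.96 that passed (adjusted p 0.00140) and an interaction of 0.57 that did not (adjusted p 0.277).

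In 5 named genes INS37217 retinas stood below saline retinas at 2 h and above them at 7 d, with both tests passed: Ccn2, Tagln, Acta2, Gpnmb and, at a dimmer probe set, Ywhab. Ccn2, connective tissue growth factor, read 8.92, 9.67 and 9.45 in INS37217 retinas at 7 d, against 8.14, 8.85 and 8.80 in saline retinas. At 2 h this was turned round, with 8.51, 8.81 and 8.78 in INS37217 retinas, against 9.15, 9.67 and 9.80 in saline retinas. At 7 d the saline value of replicates 2 and 3 came near the INS37217 value of replicate 1, but within each replicate number INS37217 was higher. The effects were 0.75 (adjusted p 0.00285) at 7 d and -0.84 (adjusted p 0.00111) at 2 h, and the interaction 1.59 (SE 0.15, adjusted p 0.000110). Its change over time had opposite signs in the 2 arms, at 0.65 with INS37217 and -0.94 with saline, and both passed.

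Tagln and Acta2 encode transgelin and smooth muscle actin, contractile proteins of smooth muscle, pericytes and myofibroblasts. Tagln read 8.04, 8.56 and 8.81 in INS37217 retinas at 7 d, against 7.17, 7.52 and 7.70 in saline retinas. At 2 h its values were 7.31, 7.39 and 7.72 with INS37217 and 7.84, 8.10 and 8.14 with saline. Both pairs of groups lay apart, and the interaction was 1.56 (SE 0.15, adjusted p 0.000110). Acta2 had an effect of 0.61 at 7 d (adjusted p 0.00518) and -0.48 at 2 h (adjusted p 0.0194), with an interaction of 1.09 (adjusted p 0.000947) at its brightest probe set. Another probe set of Acta2 had -0.47 and did not pass. Myh11, the smooth muscle myosin, had an interaction of 0.88 (adjusted p 0.0437), carried by 2 h (-0.62, adjusted p 0.0279). Gja1, connexin 43 of gap junctions, had an interaction of 0.97 (adjusted p 0.00404), made of 0.61 at 7 d, which passed, and -0.37 at 2 h, which did not. Ywhab, a 14-3-3 adaptor protein, had 0.88 (adjusted p 0.00453) at 1 of 6 probe sets, while the brightest had 0.13 (adjusted p 0.899). Gas1, a growth arrest gene, had 0.70 (adjusted p 0.0158), made of 0.30 at 7 d, which did not pass, and -0.41 at 2 h, which did (adjusted p 0.0339).

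Acta2, Tagln and Myh11 were the calls among 17 endothelium and pericyte genes, of which 9 were below 0 and the median was -0.01. The 14 fibroblast genes had 4 higher calls (Dcn, Col1a2, Col3a1 and Mgp) and 0 lower, with a median of 0.21. The 13 extraocular muscle genes had 0 calls by limma (1 at an unadjusted p under 0.05) and a median of -0.07. In summed linear signal the fibroblast list had 2265 to 2769 in INS37217 retinas at 7 d and 1859 to 2034 in saline retinas. At 2 h it had 1330 to 1708 with INS37217 and 1460 to 1780 with saline, and these ranges overlapped.

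Of the 35 gene lists, the pigment cell genes had the lowest median INS37217 effect at 2 h, -0.58. Melanosomes are the organelles that make and hold melanin, in the pigment epithelium and in choroidal melanocytes, and their genes are transcribed in albino mice too. Pmel, the protein of the melanosome's inner fibrils, read 9.24, 9.49 and 9.41 in INS37217 retinas at 7 d, against 9.08, 9.31 and 9.37 in saline retinas. Its readings at 2 h were 7.65, 7.55 and 8.05 in INS37217 retinas, against 9.04, 8.90 and 8.96 in saline retinas. The 7 d groups overlapped, although within each replicate number INS37217 was slightly higher, without a call. At 2 h every INS37217 array lay under every saline array. The 2 h effect was -1.22 (adjusted p 0.000140) and the interaction 1.34 (SE 0.17, adjusted p 0.00104).

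Tyrp1 and Dct, enzymes of melanin synthesis related to tyrosinase, followed Pmel. Tyrp1 had a 2 h effect of -1.01 (adjusted p 0.00121), with interactions of 1.2 to 1.36 at 3 probe sets, which all passed. Dct read 9.07, 9.38 and 9.56 in INS37217 retinas at 2 h, against 9.90, 10.37 and 10.44 in saline retinas, an effect of -0.90 (adjusted p 0.000274). Its interaction was 1.12 (adjusted p 0.000904). Trpm1, a cation channel of melanocytes that ON bipolar cells of the retina also use, had an interaction of 1.07 (adjusted p 0.00361) with a 2 h effect of -0.72. The other 6 bipolar cell genes had no call. Gpnmb, a melanosome glycoprotein that macrophages also make, had 0.66 at 7 d and -0.58 at 2 h and an interaction of 1.24 (adjusted p 0.000579). It passed in every one of the 21 settings.

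Of 11 pigment genes measured these 5 were higher and 0 lower, 10 were above 0, and the median was 0.95, or 0.57 with the mean over all probe sets of a gene. Tyr, tyrosinase itself, had 0.95 and did not pass (adjusted p 0.200). The summed linear signal of the 11 was 4843 to 6205 in INS37217 retinas at 7 d and 3928 to 5182 in saline retinas. At 2 h it was 1854 to 2127 in INS37217 retinas, against 3173 to 3480 in saline retinas. Of 13 genes of the pigment epithelium, among them those of its visual cycle, 0 passed by limma and 5 had an unadjusted p under 0.05. Of these 13, 11 were below 0, and the median was -0.33. Rpe65, the isomerase that remakes the visual chromophore, read 8.30, 8.17 and 8.40 in INS37217 retinas at 2 h, against 8.04, 7.95 and 7.93 in saline retinas. Its interaction was -0.71 (adjusted p 0.0708), and that of Rgr, a light-driven opsin of the same epithelium, was -0.77 (adjusted p 0.0511). The part of the amount of attached pigment tissue in these values was not tested.

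The promoters of 3 pigment genes hold, on either strand, the letters TCATGTG, which form a known binding motif of MITF, the master regulator of melanocytes. They are shown because these genes moved together, and the capitals mark each match. The windows are the 250 bases before the RefSeq start, on GRCm38.p6, read 5′ to 3′ on the gene's strand. They lie at chr4:80833963-80834212 on the plus strand for Tyrp1, at chr14:118052247-118052496 on the minus strand for Dct and at chr7:64153585-64153834 on the plus strand for Trpm1.
Tyrp1: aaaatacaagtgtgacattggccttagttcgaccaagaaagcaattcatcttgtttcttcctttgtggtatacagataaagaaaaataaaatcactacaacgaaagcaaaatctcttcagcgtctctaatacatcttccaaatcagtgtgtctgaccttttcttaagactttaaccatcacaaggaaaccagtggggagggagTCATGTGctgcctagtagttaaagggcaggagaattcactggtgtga
Dct: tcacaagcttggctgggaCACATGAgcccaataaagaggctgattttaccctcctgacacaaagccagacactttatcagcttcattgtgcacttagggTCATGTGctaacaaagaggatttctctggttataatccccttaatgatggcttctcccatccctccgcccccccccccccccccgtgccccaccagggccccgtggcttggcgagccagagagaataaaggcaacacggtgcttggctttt
Trpm1: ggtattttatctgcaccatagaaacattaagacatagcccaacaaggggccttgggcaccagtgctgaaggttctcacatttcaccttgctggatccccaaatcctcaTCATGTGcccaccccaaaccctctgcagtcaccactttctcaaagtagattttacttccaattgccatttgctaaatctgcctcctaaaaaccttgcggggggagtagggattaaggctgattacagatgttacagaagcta
The match starts 47 bases before the start of Tyrp1, 232 and 151 before that of Dct and 142 before that of Trpm1, at 1 of the 2 RefSeq start sites of Trpm1. Of 32851 such windows 1068 hold the letters (3.25%), and of the 5 called pigment genes 4 were in the sequence table and 3 held them. Gpnmb did not. A match is a description of the letters and shows no binding.

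**Figure D3:**
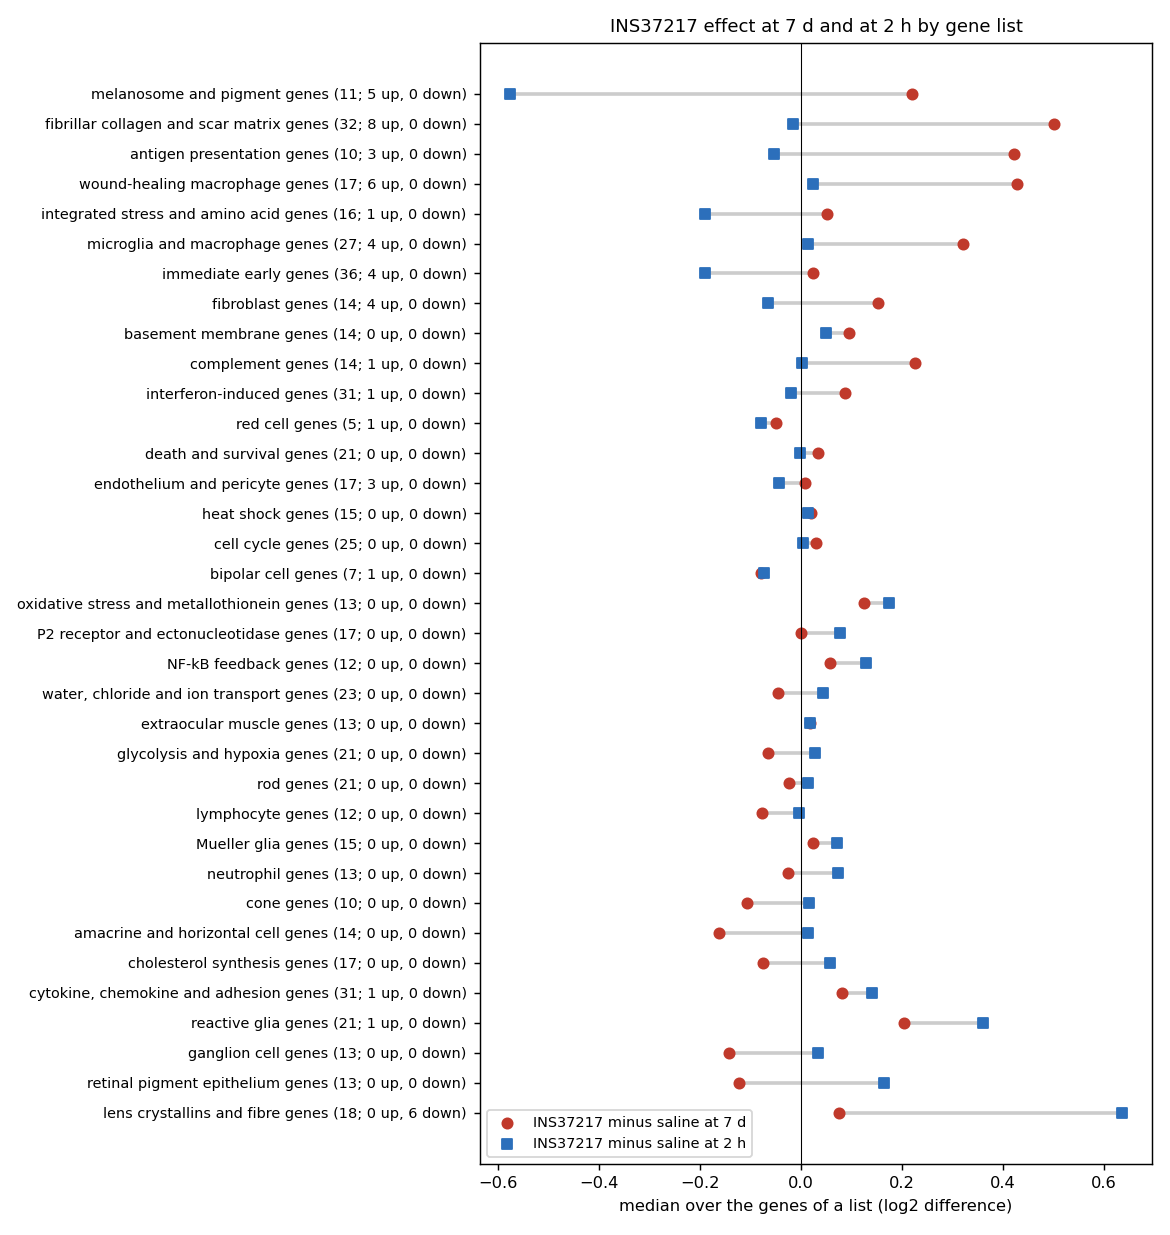
Median INS37217 minus saline difference (log2) over the genes of each of 35 lists, at 7 d (red circles) and at 2 h (blue squares), with the number of genes measured and the number that passed the interaction higher (up) and lower (down). Pigment genes lie lowest at 2 h, scar matrix and wound-healing macrophage genes highest at 7 d, and lens genes highest at 2 h.

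Immediate early genes are switched on within minutes of injury, and some were lower in INS37217 than in saline retinas at 2 h. Egr2, a zinc finger transcription factor, read 5.89, 6.35 and 5.95 in INS37217 retinas at 2 h, against 6.53, 7.32 and 7.45 in saline retinas. At 7 d it read 4.99, 5.07 and 5.07 in INS37217 retinas, against 4.75, 4.73 and 4.92 in saline retinas, all below the 2 h values. The 2 h effect was -1.04 (adjusted p 0.00283) and the interaction 1.28 (SE 0.22, adjusted p 0.0128). Nr4a1, an orphan nuclear receptor, read 10.72, 10.20 and 10.23 in INS37217 retinas at 2 h, against 11.61, 11.22 and 11.41 in saline retinas. The 2 h groups lay apart and the 7 d values overlapped, with 7.97 to 8.43 in INS37217 retinas and 8.08 to 8.34 in saline retinas, which gave an interaction of 0.92 (adjusted p 0.00653).

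Ccn1, a matricellular protein related to Ccn2, had a 2 h effect of -0.74 (adjusted p 0.00450) and an interaction of 1.06 (adjusted p 0.00704) at its brightest probe set. Btg2, an antiproliferative gene, had 0.78 at a dimmer probe set and 0.64 (adjusted p 0.0793) at its brightest. Klf6 had 0.73 at a dimmer probe set, made of 0.37 at 7 d and -0.36 at 2 h, neither of which passed, while its brightest had -0.13 (adjusted p 0.901). Of 36 immediate early genes 4 were higher at the brightest probe set (Egr2, Nr4a1, Ccn1 and Ccn2) and 6 at any (also Btg2 and Klf6), 0 were lower, and the median was 0.22. Their median 2 h effect was -0.19. Fos, the best known of them, had a change over time of -2.80 with INS37217 and -3.15 with saline and an interaction of 0.35 that did not pass (adjusted p 0.456). Egr1 had 0.44, Junb 0.70 and Klf4 0.76 (adjusted p 0.0583), none of which passed. Their direction was thus not uniform, with 15 of 36 below 0.

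Alas2, the enzyme of heme synthesis in developing red cells, also owed its interaction to 2 h. It read 7.78, 7.28 and 7.42 in INS37217 retinas at 2 h, against 8.81, 8.72 and 9.07 in saline retinas. At 7 d it read 6.36, 6.28 and 6.29 with INS37217 and 6.43, 6.0 and 6.34 with saline. Its effect at 2 h was -1.37 (adjusted p 0.000116) and the interaction 1.43 (SE 0.16, adjusted p 0.000596). Of the 5 red cell genes with a probe set of their own Alas2 was the one that passed, and Slc4a1, the anion exchanger of the red cell membrane, had 0.20.

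The globins, the chains of hemoglobin, have in addition 2 bright probe sets that each match several of their genes, and both passed in the direction of Alas2. The beta-globin one read 12.85, 12.67 and 12.62 in INS37217 retinas at 2 h, against 13.49, 13.3 and 13.31 in saline retinas. At 7 d it read 11.25, 11.03 and 11.17 with INS37217 and 11.16, 11.05 and 11.09 with saline. The groups lay apart at 2 h and overlapped at 7 d. Its 2 h effect was -0.65 (adjusted p 0.00160) and the interaction 0.70 (SE 0.13, adjusted p 0.0173). The alpha-globin one had a 2 h effect of -0.55 (adjusted p 0.0104) and an interaction of 0.73 (SE 0.14, adjusted p 0.0266). A dim probe set of Hbb-b2 alone passed with 1.18, and a brighter one had -0.14. Of the 21 alternative settings the call of the beta-globin probe set was kept in 13 and that of the alpha-globin one in 10, against 19 for Alas2. At 24 h Alas2 was again lower in INS37217 retinas (-0.81, adjusted p 0.00178), as were the beta-globin probe set (-0.78, adjusted p 0.00270) and the alpha-globin one (-0.66, adjusted p 0.00337).

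Dio2, the enzyme that activates thyroid hormone, had a 2 h effect of -0.96 (adjusted p 0.000184) and an interaction of 0.80 at a dimmer probe set. Its brightest probe set had an interaction of 0.30 (adjusted p 0.824), and the lowest over its probe sets was -0.39.

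On the lower side the lens genes stood together. Crystallins are the soluble proteins of the lens fibre, and several are also made at low level in the retina. Crygd, gamma-D crystallin, read 11.77, 11.95 and 11.98 in INS37217 retinas at 7 d, against 11.77, 11.85 and 11.82 in saline retinas. At 2 h it read 11.41, 11.22 and 11.16 in INS37217 retinas, against 9.89, 10.12 and 10.32 in saline retinas. The saline 2 h arrays were the lowest and lay apart from the INS37217 2 h arrays, with an effect of 1.15 (adjusted p 0.000140). The interaction was -1.07 (SE 0.16, adjusted p 0.00562). Over time Crygd changed by 0.64 with INS37217 and by 1.7 with saline, both past the test.

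Bfsp1, filensin, a beaded filament protein particular to lens fibres, had an interaction of -1.02 (SE 0.16, adjusted p 0.00895). It read 8.64, 8.99 and 8.80 in INS37217 retinas at 2 h, against 7.61, 7.74 and 8.16 in saline retinas. Cryga had -1.0 (adjusted p 0.0436), Crybb1 -0.80 (adjusted p 0.0128), Cryba4 -0.75 (adjusted p 0.0129) and Cryba2 -0.66 (adjusted p 0.0302), all of them crystallins. Mip, aquaporin 0, the water channel of lens fibres, had -0.96 (adjusted p 0.0163) at one probe set, and -0.47 at a brighter one that did not pass. Of 18 lens genes measured, 6 were lower at the brightest probe set and 7 at any, 0 were higher, all 18 were below 0, and the median was -0.43. Cryaa and Cryab, the alpha crystallins and the brightest of the list, had -0.17 and -0.28, and neither passed. Without saline 7 d replicate 2, Crygd and Bfsp1 still passed, while Cryga, Crybb1, Cryba4, Cryba2 and Mip had an adjusted p of 0.0514 to 0.152.

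The summed linear signal of the 18 lens genes was 89152 to 89827 in INS37217 retinas at 7 d, against 85121 to 86975 in saline retinas. At 2 h it was 76235 to 78406 with INS37217 and 54073 to 58585 with saline. At 24 h the sums were 81504 to 83807 with INS37217 and 77802 to 83802 with saline, which overlapped. The saline 2 h arrays were thus the ones apart, with the lowest sums of the 18 arrays. How much lens tissue came along with each pool was not tested.

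Lens promoters are shown for the same reason. The letters TGCTGA, searched on both strands, are the core of the MAF recognition element of lens crystallin promoters. They occurred in the 250 bases before the start of 6 of the 7 called lens genes. Crygd was the exception. The background is 5282 of 32851 such windows (16.1%). The windows of Crybb1, at chr5:112255570-112255819 on the plus strand, and of Cryba4, at chr5:112252519-112252768 on the minus strand, are shown with matches in capitals, as neighbours on chromosome 5 that moved alike. Sequence and build are those of the pigment genes above, RefSeq on GRCm38.p6.
Crybb1: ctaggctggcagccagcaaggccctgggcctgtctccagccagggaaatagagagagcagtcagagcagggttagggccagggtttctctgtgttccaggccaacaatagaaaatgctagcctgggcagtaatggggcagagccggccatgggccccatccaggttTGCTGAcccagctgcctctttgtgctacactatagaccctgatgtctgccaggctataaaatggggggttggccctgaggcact
Cryba4: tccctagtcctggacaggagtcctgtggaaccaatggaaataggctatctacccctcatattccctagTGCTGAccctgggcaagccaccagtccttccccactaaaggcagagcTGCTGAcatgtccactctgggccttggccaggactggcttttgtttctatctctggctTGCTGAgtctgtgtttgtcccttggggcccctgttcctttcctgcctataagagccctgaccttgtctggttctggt
Crybb1 has 1 match, 84 bases before the start, and Cryba4 has 3, at 182, 135 and 77. A match in these letters again shows no binding.

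The lower genes outside the lens were varied. Hspa1b, a heat shock protein of the Hsp70 family, read 8.74, 9.07 and 8.85 in INS37217 retinas at 2 h, against 7.76, 7.94 and 7.97 in saline retinas. Its interaction was -1.07 (SE 0.13, adjusted p 0.000947) at that probe set and -0.94 at the brightest, which did not pass (adjusted p 0.0859). Hspa1a, its near-identical copy, had -0.59 (adjusted p 0.0988), and the probe sets of both may share transcripts. Rcan1, an inhibitor of calcineurin, had -1.02 (adjusted p 0.00371) and a 2 h effect of 0.94 at a dimmer probe set, while its brightest had an interaction of -0.20 (adjusted p 0.784). Srxn1, sulfiredoxin, an antioxidant enzyme, had -0.82 (adjusted p 0.0474) with a 2 h effect of 0.93, also at a dimmer probe set, and -0.35 (adjusted p 0.550) at the brightest. With time in INS37217 retinas, Hspa1b fell by 1.12, Rcan1 by 2.06 and Srxn1 by 2.21. In saline retinas Rcan1 changed by -1.04 and Srxn1 by -1.39, both past the test, and Hspa1b by -0.05, which did not pass (adjusted p 0.762). Agt, angiotensinogen, had -0.69 (adjusted p 0.0260) and Dgke, a diacylglycerol kinase, -0.70 (adjusted p 0.0199). Of 15 heat shock genes 0 passed at the brightest probe set by limma and 4 had an unadjusted p under 0.05 there. Hspa1b was the 1 to pass at any probe set, and the list median was -0.01. Of 13 oxidative stress and metallothionein genes 0 passed at the brightest probe set (1 at an unadjusted p under 0.05) and 1 at any, Srxn1, with a median of -0.06. Syt1, synaptotagmin 1 of synaptic vesicles, had -0.86 (adjusted p 0.0135) at a dimmer probe set, and Kif5c, a kinesin of neurons, had -0.93 (adjusted p 0.0287), both with a 2 h effect that passed (0.85 and 0.97).

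Most genes of the lower group passed at a probe set that was not their brightest. Of 36 genes 9 passed at the brightest and 27 only elsewhere. In those 27 the called probe sets had a median of -0.88 and the brightest ones -0.08, from -0.94 to 0.20. Top2b, DNA topoisomerase II beta, had the most negative interaction of all, -1.40 (SE 0.25, adjusted p 0.0163), at a probe set with a mean of 6.57 over 18 arrays. Its brightest probe set had a mean of 9.73 and an interaction of 0.06. For Hif1a, the hypoxia-responsive transcription factor, the 2 values were -0.83 and -0.01, and for the deubiquitinase Usp12 -1.19 and -0.08. On the higher side 48 of 65 genes passed at the brightest probe set, and in the other 17 the medians were 0.80 at the called and 0.36 at the brightest.

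A sign of RNA quality also stood apart on the saline 2 h arrays. The beta-actin control reports its 3′ minus its 5′ signal, which grows as RNA breaks down or as less of it is copied in full. It was 0.46, 0.65 and 0.70 in INS37217 retinas at 7 d, against 0.70, 0.65 and 0.60 in saline retinas. At 2 h it was 0.76, 0.78 and 0.70 in INS37217 retinas, against 0.93, 1.10 and 1.08 in saline retinas. The saline 2 h arrays were thus the highest of the 12 (exact permutation p 0.10 at 2 h, two-sided, the smallest that 3 against 3 arrays allow). The Gapdh control differed by -0.15 at 2 h (exact permutation p 0.30), INS37217 minus saline. The median of the 44 lower probe sets, each centred on its mean, was lowest on the same arrays, with -0.18, 0.16 and 0.22 for INS37217 at 2 h, against -1.03, -0.62 and -0.52 for saline at 2 h. All 44 had passed as higher with INS37217 at 2 h, so the lower saline median there follows from the selection. The part of RNA quality in these results was not tested.

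**Figure D4:**
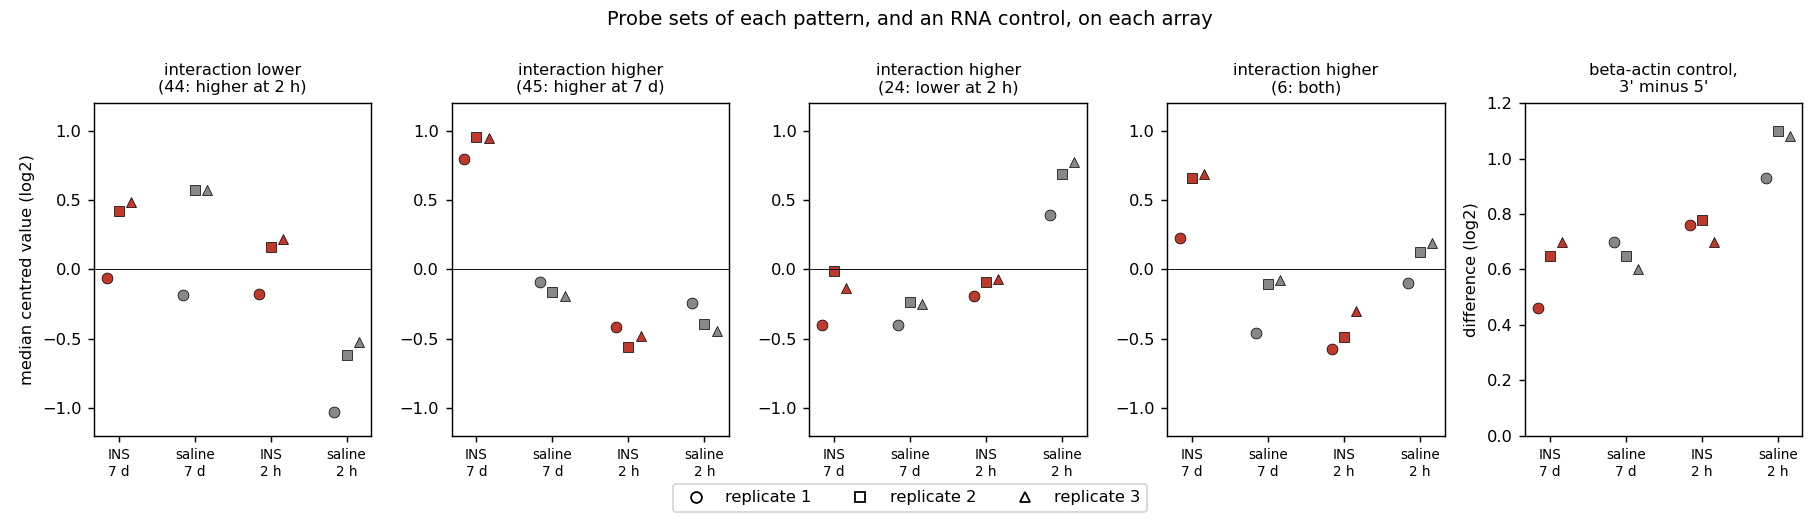
Median centred value (log2) on each of the 12 arrays for 4 patterns of called probe sets, and the 3′ minus 5′ difference of the beta-actin control (log2), with points shaped by replicate number. The 44 lower probe sets are lowest on the saline 2 h arrays, where the control is highest (0.93 to 1.10), the 45 probe sets of the second panel are highest in INS37217 retinas at 7 d, and the 24 of the third are highest in saline retinas at 2 h. The patterns were defined by calls on these same arrays, so these gaps follow from the selection.

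The 45 probe sets with an effect at 7 d alone had medians of 0.79, 0.96 and 0.95 on the INS37217 7 d arrays, against -0.09, -0.16 and -0.19 on the saline 7 d arrays. At 2 h they had -0.42, -0.56 and -0.48 with INS37217 and -0.25, -0.39 and -0.44 with saline. The beta-actin control did not separate the 7 d groups (exact permutation p 0.90). The 24 probe sets lower at 2 h alone had medians of -0.19, -0.09 and -0.07 in INS37217 retinas at 2 h, against 0.40, 0.69 and 0.77 in saline retinas at 2 h. The 45 and the 24 were picked by their calls at 7 d and at 2 h. These gaps between INS37217 and saline were thus fixed by the selection.

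Changes over time were common: 3662 probe sets passed in INS37217 retinas (16.2%, with 8.33% up and 7.85% down from 2 h to 7 d) and 4605 in saline retinas (20.4%, with 11.3% up and 9.03% down). Within these, 44 of the 83 higher probe sets increased with time in INS37217 retinas and had no call in saline retinas, 18 increased in both and 4 increased with INS37217 and decreased with saline. A further 11 decreased in both and 6 decreased with saline alone. Of the 44 lower ones 17 increased in both arms, 17 with saline alone, 6 decreased in both and 4 with INS37217 alone.

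The 24 h arrays, which the interaction did not use, gave the drug effect between the times. Of the 83 higher probe sets 12 were higher in INS37217 retinas at 24 h and 3, Alas2 and the shared globin probe sets, lower, where 0.751% and 0.367% of all probe sets were called by a limma fit on those 6 arrays. Of the 44 lower ones 1 was higher and 0 were lower. The 12 were largely immune: Arg1 had 1.13 (adjusted p 0.0144), Srgn, serglycin of leukocyte granules, 1.15 (adjusted p 0.000538), B2m 1.07 (adjusted p 0.000248), Ptprc 0.83 (adjusted p 0.00178) and Ccl6 0.82 (adjusted p 0.0283). Lyz1 had 0.70, Lyz2 0.64 and Ifitm3 0.79, all past the test. The 3 fibrillar collagen genes named above did not pass at 24 h: Col1a1 had -0.11, Col1a2 -0.04 and Col3a1 0.36 (adjusted p 0.182). Pmel had -0.26, Ccn2 -0.01 and Crygd -0.16, and none passed.

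P2ry2, which encodes the receptor that INS37217 activates, did not pass. It read 5.38, 5.20 and 5.48 in INS37217 retinas at 7 d, against 5.25, 5.44 and 5.55 in saline retinas. Its readings at 2 h were 5.30, 5.45 and 5.47 with INS37217 and 5.36, 5.24 and 5.30 with saline, and the groups overlapped at both times. The interaction was -0.17 (SE 0.14, adjusted p 0.857). Of 17 P2 receptor and ectonucleotidase genes 0 passed by limma and 1 had an unadjusted p under 0.05, and the median was -0.06. Nt5e, the CD73 enzyme that makes adenosine, had an effect of 0.54 at 2 h that passed (adjusted p 0.00884) and an interaction of -0.57 that did not (adjusted p 0.0820). Among 23 water, chloride and ion transport genes 0 passed at the brightest probe set (3 at an unadjusted p under 0.05) and 1 at any, Mip, with a median of -0.07.

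Among glial genes Serpina3n, a protease inhibitor of reactive glia, was the 1 of 21 reactive glia genes to pass. It read 10.55, 10.53 and 10.48 in INS37217 retinas at 7 d, against 9.26, 8.79 and 8.89 in saline retinas, with an interaction of 1.16 (SE 0.16, adjusted p 0.00248). The 7 d effect passed and was larger than the interaction, because INS37217 retinas also stood higher at 2 h, without a call there. Gfap, the intermediate filament of reactive glia, had 0.32 (adjusted p 0.627) and Fgf2, a survival factor of photoreceptors, -0.27 (adjusted p 0.889). Lcn2, lipocalin 2, was higher in INS37217 retinas at both times, by 0.59 (adjusted p 0.0292) at 7 d and 0.79 (adjusted p 0.00274) at 2 h, so its interaction was -0.20 and did not pass (adjusted p 0.848). By limma 0 genes passed among 21 rod, 10 cone, 15 Müller glia, 14 amacrine and horizontal cell and 13 ganglion cell genes, whose medians ran from -0.20 to -0.08. At an unadjusted p under 0.05 there were 1, 2, 1, 1 and 3 of them in that order of lists, beside 1941 of all 22626 probe sets. Interactions of this size are not shown to be absent. Prph2, a protein of photoreceptor disc rims, had -0.81 (adjusted p 0.0857). Further lists with 0 calls by limma were cell cycle (25 genes, 1 at an unadjusted p under 0.05), cholesterol synthesis (17 genes, 7), glycolysis and hypoxia (21 genes, 4), NF-kB feedback (12 genes, 3) and death and survival (21 genes, 1). Their medians lay between -0.15 and 0.02. Of 31 cytokine, chemokine and adhesion genes 1 passed, Ccl6, with a median of -0.15. Of 16 integrated stress and amino acid genes 1 passed, Aldh18a1, the first enzyme of proline synthesis, with 0.72 (adjusted p 0.0474), and the median was 0.29.

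**Figure D5:**
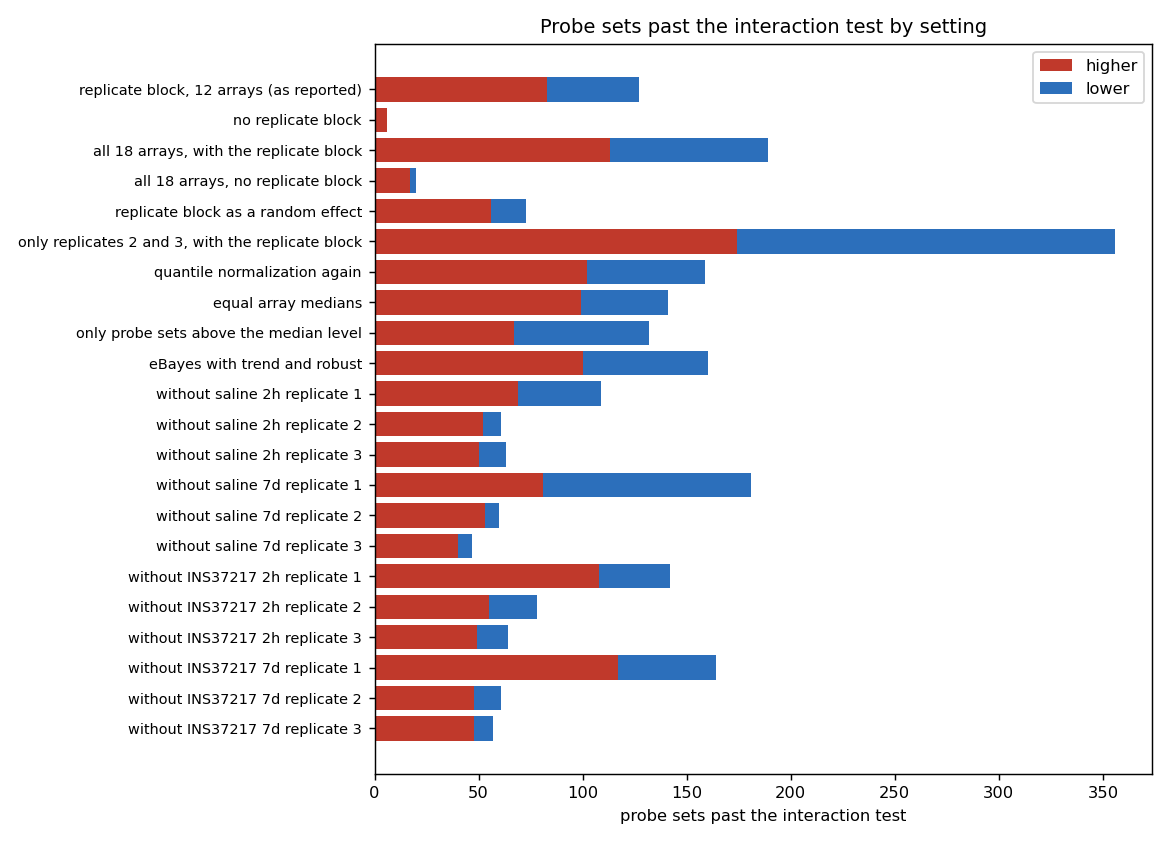
Number of probe sets that passed the interaction, higher in red and lower in blue, as reported (127) and in 21 other settings. The count is 6 without the replicate block and 356 on replicates 2 and 3 alone, and with 1 array left out it lies between 47 and 181.

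Across the settings, of the 83 higher probe sets 6 passed in every setting in which they were tested and 38 with any single array left out, against 0 and 5 of the 44 lower ones. None of the 127 changed sign in any setting in which it was tested. Fn1, Gpnmb, Col1a1, Col3a1 and Pf4 are the named ones that passed throughout, Fn1 and Gpnmb in 21 settings and the other 3 in the 20 in which they were tested. Of the 69 genes or shared globin probe sets given with a call, 32 kept it with any 1 array left out and 37 lost it in at least 1 such fit. Those that kept it include Arg1, Ccl6, Lyz2, H2-Aa, B2m, Col1a2, Bgn, Postn, Ccn2, Tagln, Acta2, Pmel, Tyrp1, Dct, Alas2, Nr4a1, Serpina3n, Crygd, Bfsp1, Hspa1b and Rcan1. Those that lost it include Dcn, Fbln2, Ptprc, Cd74, Ctss, Mgp, Tnc, Myh11, Egr2, Ifitm3, Top2b and each named crystallin but Crygd.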

How the data were processed

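The measurements were Affymetrix mouse arrays of total retinal RNA, and the values used are the deposited log2 signals that the authors computed by RMA, per the submitters' processing notes. Its version is not stated there. The deposited table holds 22690 probe sets, with values from 2.83 to 14.15, and array medians lay between 6.67 and 6.76. The 64 Affymetrix controls were left out of the tests. Groups and replicate numbers were taken from the titles. Arrays have no read depth, and their number, 3 per group, limits the precision.

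The tests used limma (version 3.58.1, R version 4.3.3), with lmFit and eBayes on the 12 arrays of 2 h and 7 d, with 1 mean per group and the replicate number as a fixed block (residual degrees of freedom 6, prior 9.12). P values are two-sided and adjusted by Benjamini-Hochberg over 22626 probe sets, with 0.05 as the threshold. Every p in the text is from limma unless an exact permutation test is named. The 24 h arrays had a fit of their own, with 2 residual degrees of freedom. The steps were tested on simulated data.

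The likeness of same-numbered arrays is described here, and it cannot decide whether the numbers pair the arrays. After the group means were removed, same-numbered arrays (18 pairs) correlated at 0.515 to 0.921, pairs of number 1 with 2 or 3 at -0.847 to -0.554, and pairs of 2 with 3 at 0.363 to 0.725. Deviations from a group mean cancel within the group, so with replicate 1 apart these signs are favoured in advance. The ranges of same-numbered pairs and of 2 with 3 overlapped, so a pairing of numbers 2 and 3 is not shown. Between 0.712% and 2.79% of values were identical in any 2 arrays of a group, so that no array was a copy of another. The labels do not say what the numbers stand for.

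Gene names came from the platform's probe table and were updated through RefSeq: 20380 probe sets had 1 gene (12393 genes), 691 had several and 1555 none, and the last 2 kinds stay unnamed, except that 2 probe sets matching several globin genes each are described as such. A gene's values are those of its brightest probe set, the one with the highest mean on the 18 arrays. The naming rule took, in each direction, up to 15 genes of largest interaction among those past the threshold with the same sign in all 3 replicate numbers, up to 3 members of each of 35 lists (16 of cell types, 19 of functions) and 11 genes named always, of which not all are given. The further genes, and those named at a probe set that is not their brightest, were chosen after their values were seen, except members given with their list. Members and lists were chosen with earlier results of these data known. Lists are described by counts and medians, without a set test. Summed linear signal adds, over the genes of a list, 2 raised to the log2 value, so the brightest genes weigh most. Motif matches were searched on both strands of RefSeq promoter windows.

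The alternatives were fits without the block, with it as a random effect, on all 18 arrays, on replicates 2 and 3, with each array left out, with quantile normalization or equal medians, with a filter on low values, and with eBayes trend and robust.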

Additional observations from a re-analysis of the deposited data

Results flagged for a closer look

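Each interaction that passed is by itself a difference between the INS37217 effect at 7 d and that at 2 h, tested by limma with the replicate block. The genes given with a call, and the 2 probe sets shared by globin genes, are therefore listed, with the interaction in log2. Among the higher genes Col1a1, Fcgr2b, Hbb-b2, Col5a1, Dio2, Ywhab, Btg2, Klf6 and Timp3 passed only at a dimmer probe set, whose value is given. Among the lower genes so did Top2b, Usp12, Hspa1b, Rcan1, Mip, Syt1, Hif1a, Srxn1 and Fabp5. Groups of 3 arrays were too small to tell which single array is outlying. Of the 69 listed, 37 lost the call in at least 1 fit with 1 array left out.

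Among macrophage and immune genes the interaction was 3.21 for Arg1, 1.97 for Ccl6, 1.60 for Pf4, 1.41 for Lyz1, 1.35 for Lyz2, 1.22 for F13a1, 1.16 for Ptprc and 0.60 for Mmp12. It was 1.38 for Fcgr2b, 1.04 for H2-Aa, 1.04 for B2m, 0.99 for C3ar1, 0.90 for Cd74, 0.87 for Ctss and 0.69 for Ifitm3. Among matrix genes it was 2.27 for Col3a1, 2.24 for Col1a1, 1.60 for Col1a2, 1.52 for Fn1, 1.5 for Dcn, 1.37 for Bgn, 1.33 for Fbln2 and 1.28 for Postn. The smaller values of that kind were 1.03 for Col5a1, 0.93 for Mgp, 0.83 for Tnc and 0.71 for Timp3.

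Contractile and junction genes had 1.59 (Ccn2), 1.56 (Tagln), 1.09 (Acta2), 0.88 (Myh11) and 0.97 (Gja1). Pigment genes had 1.34 (Pmel), 1.26 (Tyrp1 at its brightest probe set), 1.24 (Gpnmb), 1.12 (Dct) and 1.07 (Trpm1). Immediate early genes had 1.59 (Ccn2), 1.28 (Egr2), 1.06 (Ccn1), 0.92 (Nr4a1), 0.78 (Btg2) and 0.73 (Klf6). The other higher genes were Alas2 with 1.43, Hbb-b2 with 1.18 at its dim probe set, the shared probe set of alpha-globin genes with 0.73 and that of beta-globin genes with 0.70, Serpina3n with 1.16, Ywhab with 0.88, Dio2 with 0.80, Aldh18a1 with 0.72 and Gas1 with 0.70.

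In the lower direction the lens genes had -1.07 (Crygd), -1.02 (Bfsp1), -1.0 (Cryga), -0.96 (Mip), -0.80 (Crybb1), -0.75 (Cryba4) and -0.66 (Cryba2). Top2b had -1.40, Usp12 -1.19, Hspa1b -1.07, Rcan1 -1.02, Kif5c -0.93, Syt1 -0.86, Hif1a -0.83 and Srxn1 -0.82. The smallest of them were -0.70 for Dgke, -0.70 for Fabp5 and -0.69 for Agt.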

How the results depend on the processing

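The number of calls depended mostly on how the replicate number was treated. Against 127 with the fixed replicate block (83 higher, 44 lower), limma called 6 without the replicate block (6 higher, 0 lower, 496 at an unadjusted p under 0.05), 20 on all 18 arrays without it (17 and 3), 73 with it as a random effect (56 and 17) and 356 on replicates 2 and 3 (174 and 182). On all 18 arrays with the block the count was 189, of which 113 were higher and 76 lower. With 1 array left out it was 47 to 181, the ends being without saline 7 d replicate 3 and without saline 7 d replicate 1. The higher calls then ranged from 40 to 117 and the lower ones from 7 to 100. Any 1 of the 8 arrays of replicates 2 and 3 left out gave 47 to 78. Fits that leave out arrays have fewer degrees of freedom, and the cause of the differences was not tested otherwise. Quantile normalization again gave 159 calls, equal array medians 141, trend and robust 160, and the filter on low values 132 of 11311 tested. None of the 127 changed sign in a setting that tested it. Over the named genes 2604 alternative values stayed on their side of the threshold, 412 calls were lost and 44 gained. List medians moved in 14 of the tried cases, among them pigment genes to 0.57 and scar matrix genes to 0.44 with the mean over probe sets. The median of the endothelium list changed sign near 0 to 0.07 on replicates 2 and 3, and that of the cell cycle list to 0.02 with quantile normalization. Signal over background limits the dimmest probe sets. With the filter on low values 50 of the 83 higher and 39 of the 44 lower probe sets were still tested, and all of these passed.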
